A study of Homo sapiens with 16 samples.

Results

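The genes described here are 10 members of the base excision repair pathway, chosen by symbol out of the 26410 genes listed for the RNA of SH-SY5Y cells, an established human neuroblastoma line. They are the DNA glycosylases UNG, OGG1, MUTYH, NTHL1, NEIL1 and NEIL3, the AP endonuclease APEX1, DNA polymerase beta (POLB), the scaffold XRCC1 and DNA ligase III (LIG3). All 10 were found in both deposited tables, and all 10 passed the filter on low values (at least 1 normalized CPM in at least 4 libraries) in every comparison. The study sequenced mRNA from 4 clones, of which KO11 and KO28 carry the label TRPM2 KO and Scr13 and Scr16 are controls, with 2 replicates of each clone in each condition, so that each combination of genotype and treatment held 4 libraries. TRPM2 is a calcium-permeable ion channel, and the study asked how its loss bears on the growth of these cells and on their survival under doxorubicin, an anthracycline that damages DNA. All clones had received a pCas9 guide vector together with a donor vector carrying GFP and puromycin markers. The guide was directed at TRPM2 in the clones labelled KO and was scrambled in the Scr clones. Each clone grew from a single cell after puromycin selection, so a genotype is represented by 2 clones and its libraries are not independent clones. Cells were left untreated or were given 0.3 µM doxorubicin for 24 h by the sample labels and the methods, while the design text gives 3 µM. The methods call the 2 replicates of a clone biological replicates, without saying how they were separated, and p-values measure the spread between these libraries. Libraries held 10481177 to 25086085 reads on genes, and the shallowest was Scr16 with doxorubicin, replicate 1.

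TRPM2 reads did not fall with the KO label. Its normalized CPM (reads scaled to library size and by the authors' normalization factor) in the untreated libraries labelled KO was 1.93 and 2.23 in KO11 and 1.41 and 2.19 in KO28, while it was 0.12 in both Scr13 libraries and 0 in both Scr16 libraries. After doxorubicin it was 1.22 and 1.83 in KO11, 1.37 and 0.66 in KO28, 0.06 in both Scr13 libraries, and 1.33 and 0.39 in Scr16. The groups did not overlap without treatment, and the libraries labelled KO were the higher ones. By the methods, the clones were checked by RT-PCR and Western blotting, and the edit deleted the start of the coding sequence and shifted the frame of the rest. Reads over the whole gene do not test such an edit, which need not remove the transcript. Groups are therefore named by their labels, and every direction between genotypes below is a direction between labels. The adrenergic neuroblastoma markers summed to between 7483 and 8826 normalized CPM in every library. None of the 4 blood markers was listed in the tables, and the 2 listed of 4 epithelial markers summed to at most 1.82 normalized CPM.

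Base excision repair removes small, non-bulky lesions such as oxidised, deaminated or alkylated bases. A glycosylase recognises the damaged base and cuts it out, APEX1 nicks the backbone at the abasic site, POLB fills the gap, and LIG3, held by XRCC1, seals the nick. UNG removes uracil, OGG1 removes 8-oxoguanine opposite cytosine, MUTYH removes adenine mispaired with 8-oxoguanine, and NTHL1, NEIL1 and NEIL3 act on oxidised bases. A further, long-patch route uses replication proteins such as FEN1, PCNA, LIG1 and DNA polymerase delta. Anthracyclines poison topoisomerase II and undergo redox cycling, and oxidised bases are among the lesions they are known for.

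The promoters of the 3 members whose changes passed a test are shown first. The UNG gene lies on chr12:109097574-109110992, the APEX1 gene on chr14:20455191-20457772 and the MUTYH gene on the minus strand of chr1:45329163-45340470 (GENCODE 29, GRCh38). The stretches below are upstream of a RefSeq start, are written 5′ to 3′ on the strand of the gene and lie in no annotated exon. Capitals mark GC boxes on the minus strand (CCGCCC) in UNG and a CCAAT box (CCAAT) in APEX1 and MUTYH.
UNG, chr12:109097424-109097573, plus strand: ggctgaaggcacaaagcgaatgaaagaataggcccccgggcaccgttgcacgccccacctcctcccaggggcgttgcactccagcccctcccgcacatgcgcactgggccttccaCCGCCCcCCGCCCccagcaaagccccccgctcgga
APEX1, chr14:20455106-20455190, plus strand: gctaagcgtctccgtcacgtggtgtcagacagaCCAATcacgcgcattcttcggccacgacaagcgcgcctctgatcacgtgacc
MUTYH, chr1:45340543-45340690, minus strand: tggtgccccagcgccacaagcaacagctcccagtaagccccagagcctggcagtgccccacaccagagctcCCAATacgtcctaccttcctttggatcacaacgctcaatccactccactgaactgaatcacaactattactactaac
These come from RefSeq promoter windows (GRCh38.p14), which held 14 windows for 9 of the 10 members. Both strands were searched, and a pair of MUTYH windows and a pair of NEIL1 windows overlap, each pair sharing 1 GC box that is counted in both windows. The GC box GGGCGG was in 11 of the 14 windows and in 45.0% of all 35116 windows, and CCAAT was in 9 of them and in 34.6% of all. The palindromic NRF1 motif was in 4 (8.32% of all), and TTTGAA, the core of the cell cycle homology region (CHR), was in 4 (15.2% of all). The E2F motif TTTNGCGC was in none (1.79% of all), which says only that these letters are not in these windows. A match is a description of the letters and was not tested as a binding site.

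Levels between genes are compared per kilobase of annotated exon, as normalized CPM per kb. APEX1 stood highest, with a mean of 86.3 over the 16 libraries, followed by UNG with 23.2 and XRCC1 with 12. LIG3 (6.73), NTHL1 (6.27), MUTYH (6.24), NEIL3 (5.47) and POLB (4.95) came next, and their ranges over libraries overlapped. OGG1 (2.87) and NEIL1 (1.23) stood lowest, and neither overlapped its neighbours in the order. UNG and XRCC1 also overlapped, because UNG in the lowest doxorubicin library was at 15.1. The order depends on the length of all annotated exons, such as 8733 bases for OGG1, 12919 for LIG3 and 2430 for NTHL1. Which exons were in use was not determined. In normalized CPM without length, LIG3 (86.9) came after APEX1 (163). OGG1 (25.1) was then above MUTYH (24.4), POLB (20.3), NEIL3 (16.2) and NTHL1 (15.2), and NEIL1 (8.55) was again lowest.

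**Figure D1:**
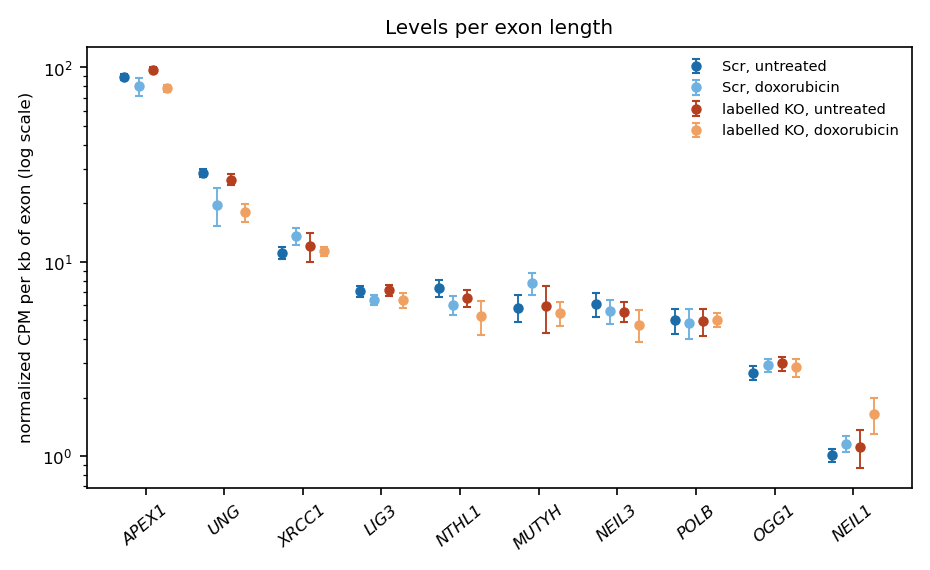
Mean level of each member per kilobase of exon (log axis, normalized CPM per kb) in the 4 combinations of genotype label and treatment; bars are the SD over 4 libraries. APEX1 and UNG lie above the other members in all 4 groups, and NEIL1 lies lowest.

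Without treatment, no member passed the test between the labels. Of 14364 genes tested, 4.84% were called (limma, Benjamini-Hochberg adjusted p under 0.05), 2.30% higher and 2.54% lower under the KO label, and 0 of the 10 members were among them. At an unadjusted p under 0.05, 0 members passed with limma or with edgeR's quasi-likelihood test on recovered reads, and 1, APEX1, passed with DESeq2, again with no call after adjustment. Of all genes, 14.3%, 13.8% and 14.5% passed that level with the 3 tools. The median log2 fold change of the members was 0.006, beside -0.007 for all genes.

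APEX1, the endonuclease that cuts at abasic sites, was the 1 member whose untreated groups did not overlap, in a comparison where 9.29% of all genes had that pattern. Its normalized CPM was 185 and 176 in KO11, 185 and 189 in KO28, 172 and 161 in Scr13, and 167 and 174 in Scr16. Every library labelled KO was above every Scr library, by a small margin. The means were 184 ± 5.69 and 169 ± 5.59 (SD, n = 4 each), a log2 fold change of 0.12 ± 0.07 (SE). This gave p = 0.0286 in a two-sided exact permutation test, the smallest that 4 against 4 libraries can give, and an adjusted p of 0.418 with limma. The 95% intervals of the log2 fold changes of all 10 members included 0 and reached from -0.45 to 0.51.

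**Figure D2:**
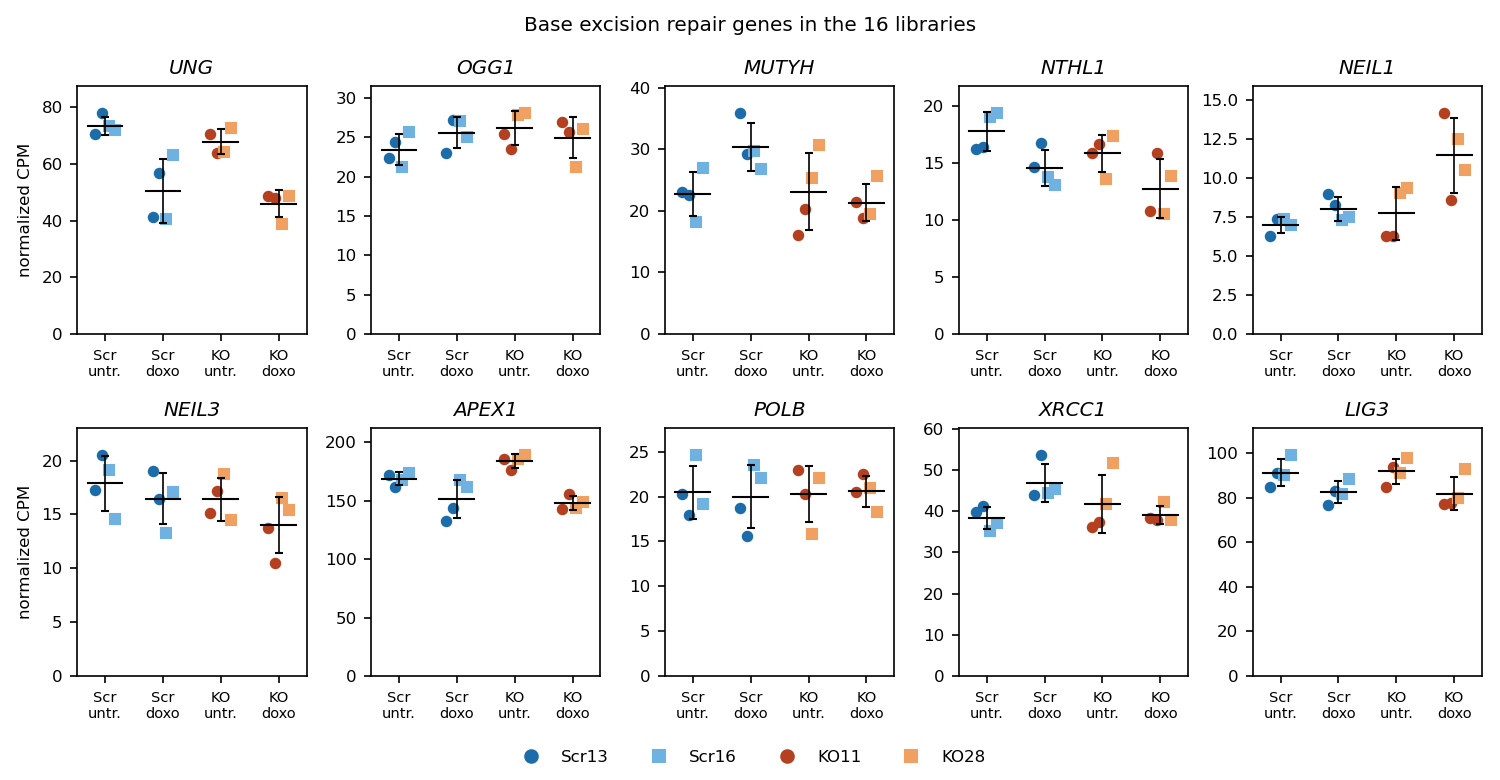
Normalized CPM of the 10 members in each of the 16 libraries (linear axis from 0), by label and treatment; symbols give the clone, horizontal lines the mean and bars the SD of 4 libraries. UNG falls from untreated to doxorubicin under both labels, and MUTYH after doxorubicin is lower in all libraries labelled KO than in all Scr libraries.

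After doxorubicin, MUTYH, the glycosylase that removes adenine from its mispair with 8-oxoguanine, was lower in the libraries labelled TRPM2 KO than in Scr. In this comparison 8.69% of 14572 genes were called, 4.17% lower and 4.52% higher, and MUTYH was the 1 member called. The members' median log2 fold change was -0.07, beside 0.01 for all genes. MUTYH was at 21.4 and 18.8 normalized CPM in KO11, 19.6 and 25.6 in KO28, 35.9 and 29.2 in Scr13, and 29.7 and 26.8 in Scr16. All 4 libraries labelled KO lay below all 4 Scr libraries, although the highest KO28 value came within 2 normalized CPM of the lowest Scr16 value. The means were 21.3 ± 3.03 and 30.4 ± 3.89 (SD, n = 4 each). On the log2 scale MUTYH differed by -0.49 ± 0.14 (SE, 95% interval -0.78 to -0.21), with an adjusted p of 0.0237 with limma and p = 0.0286 in the two-sided exact permutation test. The permutation p again only restates that the groups did not overlap. Each clone labelled KO was below each Scr clone, by -0.66 for KO11 against Scr13, -0.46 for KO11 against Scr16, -0.52 for KO28 against Scr13 and -0.31 for KO28 against Scr16 on the log2 scale. None of these 4 differences between single clones passed at an adjusted p of 0.05 with limma.

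The call for MUTYH depended on single libraries, on clones and on the fit. With all libraries kept, it was lost on clone means (adjusted p = 0.0543 with limma) and with no filter (adjusted p = 0.0649 with limma). It passed in 4 of 8 fits that each left out 1 library, with adjusted p from 0.0149 to 0.0850, and was lost without KO11 replicate 1 or 2, Scr13 replicate 1 or KO28 replicate 1, while the log2 fold change stayed between -0.58 and -0.41. It was also lost without clone KO11 (adjusted p = 0.286 with limma), clone Scr13 (0.162) or clone KO28 (0.0694). Over all 21 alternatives the difference was called in 12, with log2 fold changes of -0.59 to -0.40. Exons of TOE1, on the opposite strand, cover 14.1% of the MUTYH exons, and the strand setting of the counting is not given in the sources used here. TOE1 differed by -0.05 on the log2 scale in the same comparison, with an adjusted p of 0.926 with limma.

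XRCC1, the scaffold that carries LIG3 to the nick, was the other member whose groups did not overlap after doxorubicin, where 13.2% of all genes had that pattern. It was at 38.3 and 38.0 normalized CPM in KO11, 42.2 and 37.8 in KO28, 43.8 and 53.8 in Scr13, and 44.5 and 45.4 in Scr16. The libraries labelled KO all lay below the Scr libraries, by under 2 normalized CPM at the closest. XRCC1 differed by a log2 fold change of -0.25 ± 0.10 (SE), with an exact permutation p of 0.0286, which restates the lack of overlap. The adjusted p was 0.157 with limma, so the difference did not pass. Without Scr13 replicate 2, the highest library, the log2 fold change was -0.19. L34079.1, on the same strand, shares 6.48% of the XRCC1 exons, and L34079.3, on the opposite strand, shares 15.5%.

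NEIL1, which removes oxidised bases and is the member with the fewest reads per kilobase, had a higher mean under the KO label after doxorubicin. Its normalized CPM was 14.2 and 8.63 in KO11, 12.5 and 10.5 in KO28, 8.97 and 8.26 in Scr13, and 7.32 and 7.53 in Scr16. The groups overlapped through KO11 replicate 2. This corresponded to a log2 fold change of 0.45 ± 0.19 (SE), which did not pass (adjusted p = 0.186 with limma). The remaining 7 members, UNG, OGG1, NTHL1, NEIL3, APEX1, POLB and LIG3, had log2 fold changes from -0.23 to 0.05, and their groups overlapped. The value of -0.23 was that of NEIL3, which came to -0.10 without KO11 doxorubicin replicate 2.

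**Figure D3:**
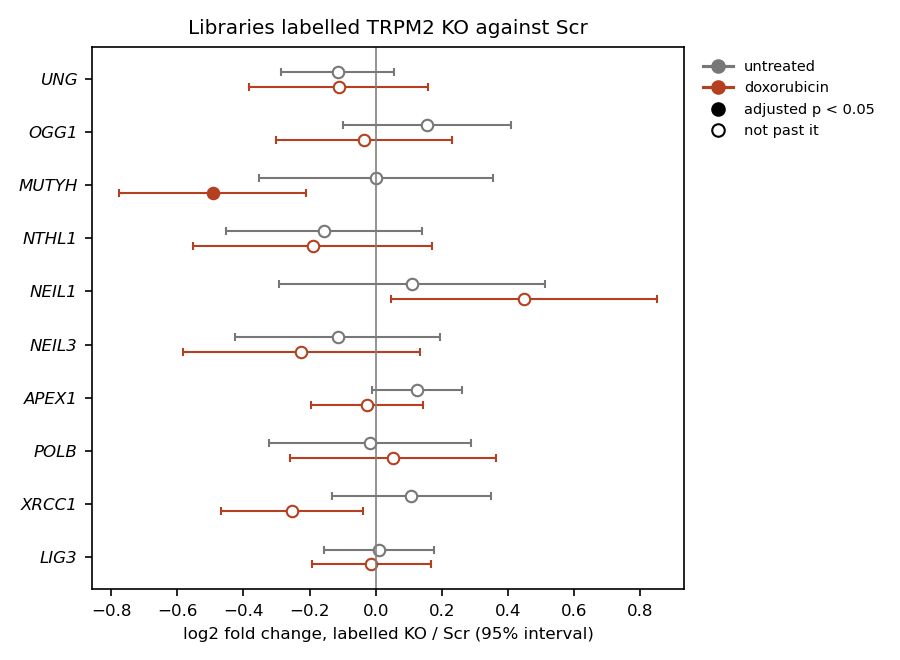
Log2 fold change of each member between the libraries labelled TRPM2 KO and Scr (x axis, limma on log2(normalized CPM + 1)) without treatment and after doxorubicin; bars are 95% intervals and filled points have an adjusted p under 0.05. MUTYH after doxorubicin, at -0.49, is the filled point.

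The responses to doxorubicin were taken within clones, in a fit over the 16 libraries with 1 common scaling. UNG, which removes uracil from DNA, fell under both labels, and APEX1 fell in the clones labelled KO. Among 15325 genes, 12.6% were called in the Scr clones and 17.7% in the clones labelled KO, with 5.65% and 7.43% lower and 6.95% and 10.3% higher. Of the 10 members, 1 was called in the Scr clones (UNG, lower) and 2 in the clones labelled KO (UNG and APEX1, both lower) with limma, which called none higher. DESeq2 called 3 members in each response, adding MUTYH and XRCC1 in Scr and NEIL1 under the KO label, all higher. It called 2287 of the 15325 genes in Scr and 2954 under the KO label. The members' median log2 fold change was -0.08 in the Scr clones and -0.12 in the clones labelled KO, beside -0.01 and 0.02 for all genes.

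UNG in the Scr clones was at 70.7 and 78.1 normalized CPM in Scr13 and 73.2 and 71.8 in Scr16 without treatment. With doxorubicin it was at 41.4 and 56.8 in Scr13 and 40.7 and 63.2 in Scr16. No treated library reached an untreated one, and the treated libraries of each clone were far apart. In this response 16.5% of all genes had groups that did not overlap, in 1 direction or the other. The log2 fold change was -0.56 ± 0.12 (SE, 95% interval -0.80 to -0.32), so that UNG fell by 32.2%, with an adjusted p of 0.0012 with limma.

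In the clones labelled KO, UNG was at 70.5 and 64.0 normalized CPM in KO11 and 64.1 and 72.7 in KO28 without treatment. With doxorubicin it was at 48.6 and 48.0 in KO11 and 38.8 and 48.6 in KO28. Again the groups did not overlap, a pattern of 19.0% of all genes in this response, and 3 of the 4 treated libraries lay within 1 normalized CPM of each other. The log2 fold change was -0.55 ± 0.12 (SE, 95% interval -0.79 to -0.31), with an adjusted p of 0.0009 with limma. The 2 responses differed by 0.01 on the log2 scale, with a 95% interval of -0.32 to 0.34. The fall was called in all 16 fits that left out 1 library, under both labels, with log2 fold changes of -0.70 to -0.45 in Scr and -0.60 to -0.48 under the KO label. Leaving out a clone ended it in 1 case under each label, without Scr13 (-0.51, adjusted p = 0.0649 with limma) and without KO28 (-0.47, adjusted p = 0.0721 with limma). By single clones, the log2 fold change of UNG passed with limma in KO28 (-0.64, adjusted p = 0.0193) and Scr13 (-0.60, adjusted p = 0.0357) and did not pass in KO11 (-0.46, adjusted p = 0.0913) or Scr16 (-0.52, adjusted p = 0.0816). The annotation places no other gene's exons on those of UNG, but it holds 2 pseudogenes named after UNG, and how the counting treated reads shared with them is not given in the sources used here.

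APEX1 in the clones labelled KO was at 185 and 176 normalized CPM in KO11 and 185 and 189 in KO28 without treatment, and at 142 and 156 in KO11 and 144 and 149 in KO28 with doxorubicin. No treated library reached an untreated one, while 19.0% of all genes had groups that did not overlap in this response. The log2 fold change of APEX1 was -0.31 ± 0.07 (SE, 95% interval -0.45 to -0.17), a fall by 19.4%, with an adjusted p of 0.0016 with limma. This fall was called in all 16 fits without 1 library (-0.34 to -0.30) and lost without clone KO28 (-0.28, adjusted p = 0.0716 with limma).

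In the Scr clones APEX1 was at 172 and 161 normalized CPM in Scr13 and 167 and 174 in Scr16 without treatment, and at 132 and 144 in Scr13 and 167 and 162 in Scr16 with doxorubicin. The treated Scr13 libraries lay below all untreated Scr libraries, while 1 treated Scr16 library lay between its clone's untreated values and the other lay below both. The log2 fold change was -0.17 ± 0.07 (SE), which did not pass (adjusted p = 0.118 with limma). The responses under the 2 labels differed by -0.15 on the log2 scale, with a 95% interval of -0.34 to 0.05, so that a difference in the response of APEX1 was not shown.

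**Figure D4:**
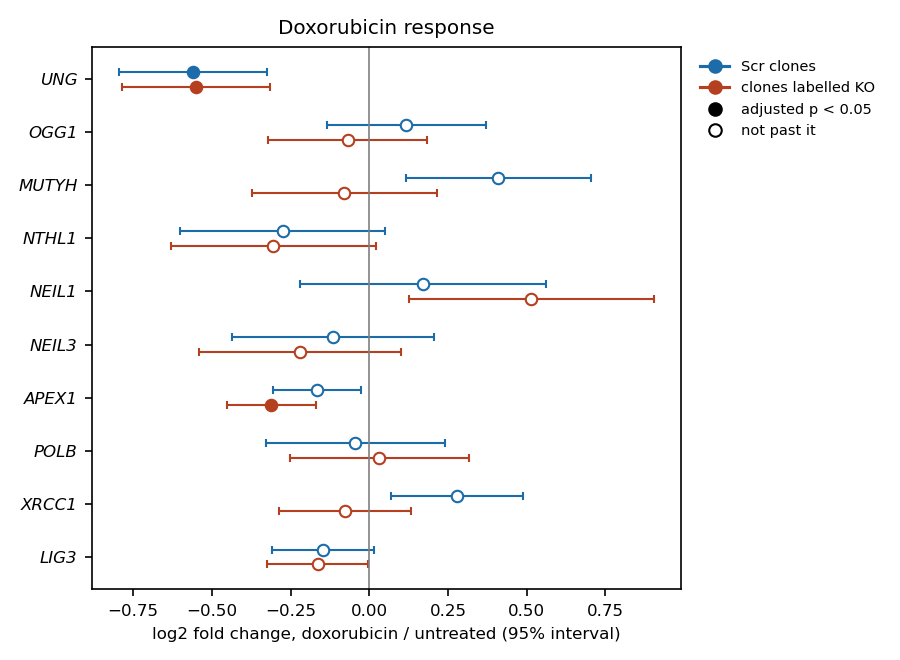
Log2 fold change of each member between doxorubicin and untreated libraries (x axis, within clones, limma on 16 libraries) for the Scr clones and the clones labelled KO; bars are 95% intervals and filled points have an adjusted p under 0.05. UNG is filled under both labels near -0.55, and APEX1 is filled under the KO label.

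MUTYH and XRCC1 had positive responses in the Scr clones that did not pass with limma and passed with DESeq2. MUTYH in Scr was at 23.1 and 22.6 normalized CPM in Scr13 and 18.1 and 26.9 in Scr16 without treatment, and at the treated values given above. The highest untreated library and the lowest treated library, both from Scr16, lay within 0.1 normalized CPM of each other. MUTYH responded by 0.41 ± 0.14 (SE) on the log2 scale, with an adjusted p of 0.0581 with limma. In the clones labelled KO, untreated MUTYH was at 16.1 and 20.4 normalized CPM in KO11 and 25.3 and 30.6 in KO28, a wider spread than in any other group. The response there was -0.08 ± 0.14 (SE) on the log2 scale, with an adjusted p of 0.774 with limma. The comparison of labels after doxorubicin and the response of the Scr clones share the 4 treated Scr libraries.

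XRCC1 in Scr was at 39.7 and 41.2 normalized CPM in Scr13 and 35.1 and 37.3 in Scr16 without treatment. Its treated Scr libraries, given above, all lay higher, a pattern that 16.5% of all genes showed in 1 direction or the other. Its log2 fold change was 0.28 ± 0.10 (SE), with an adjusted p of 0.0722 with limma. In the clones labelled KO the response of XRCC1 was -0.08 ± 0.10 (SE) and its groups overlapped, while 19.0% of all genes had groups that did not overlap there, UNG and APEX1 among them. With DESeq2, MUTYH (adjusted p = 0.0444) and XRCC1 (adjusted p = 0.0377) were called higher in the Scr clones. Over the 29 alternatives with limma, edgeR or DESeq2, MUTYH was called in 4 (adjusted p from 0.0206 to 0.449) and XRCC1 in 2 (adjusted p from 0.0377 to 0.372).

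The difference of the responses was tested directly as an interaction of label and treatment. It was called for 0.0326% of the genes (0.0196% above 0 and 0.0131% below) and for 0 of the 10 members with limma. At an unadjusted p under 0.05, 2 members passed with limma, edgeR and DESeq2 alike, beside 8.22%, 7.73% and 8.65% of all genes, and none was called by any of these tools after adjustment. They were MUTYH, with -0.49 ± 0.20 (SE, adjusted p = 0.508 with limma), and XRCC1, with -0.36 ± 0.14 (SE, adjusted p = 0.498 with limma).

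NEIL1 had a positive response under both labels, in 4 of 4 libraries each when a treated library is set against its clone's untreated mean. Untreated it was at 6.28 and 6.26 normalized CPM in KO11, 9.05 and 9.34 in KO28, 6.26 and 7.37 in Scr13, and 7.36 and 6.99 in Scr16. Both untreated KO28 libraries lay above the other untreated ones, and between the clones labelled KO, over both treatments, NEIL1 did not pass (adjusted p = 0.704 with limma). The response was 0.52 ± 0.19 (SE, adjusted p = 0.0608 with limma) under the KO label and 0.17 ± 0.19 (SE, adjusted p = 0.634 with limma) in Scr. DESeq2 called the former (adjusted p = 0.0324), as did 3 of 29 alternatives with limma, edgeR or DESeq2 in all (adjusted p from 0.0324 to 0.610). Without KO11 with doxorubicin, replicate 1, the highest library, it was 0.33 (adjusted p = 0.310 with limma). The Scr response of NEIL1 came to 0.10 without Scr13 untreated replicate 1. Exons of MAN2C1 on the opposite strand cover 26.4% of the NEIL1 exons, and MAN2C1 rose with doxorubicin by 0.47 under the KO label (adjusted p = 0.0016 with limma) and by 0.33 in Scr (adjusted p = 0.0381 with limma). The part of these shared exons in the NEIL1 values was not tested.

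None of the other 5 members passed a test of its response with limma. NTHL1, a glycosylase for oxidised pyrimidines, had responses of -0.27 in Scr and -0.31 under the KO label, NEIL3 of -0.12 and -0.22, and LIG3 of -0.15 and -0.16. OGG1 had responses of 0.12 and -0.07, and POLB of -0.04 and 0.03. Leaving out 1 library moved some of these uncalled values: NEIL3 came to -0.04 in Scr without Scr16 untreated replicate 1 and to -0.12 under the KO label without KO11 doxorubicin replicate 2, and OGG1 to 0.06 in Scr without Scr16 untreated replicate 1. Over the 16 libraries OGG1 ranged from 21.2 to 28.2 normalized CPM, NTHL1 from 10.5 to 19.4, NEIL3 from 10.5 to 20.6, POLB from 15.6 to 24.7 and LIG3 from 76.7 to 99.4. Exons of RFFL cover 29.1% of those of LIG3, CAMK1 25.0% of those of OGG1, and TSC2 16.5% of those of NTHL1, all on the opposite strand.

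The 2 clones of each label were also compared, over both treatments, to show how far clones differ. Between KO28 and KO11, 0.0522% of genes were called with limma, and between Scr16 and Scr13 0.0131%, with 0 members called in either. At an unadjusted p under 0.05, which 9.36% of all genes passed between the clones labelled KO and 7.86% between the Scr clones with limma, MUTYH had a higher mean in KO28 than in KO11, by 0.37 ± 0.14 (SE, adjusted p = 0.407 with limma), and XRCC1 passed as well with edgeR (9.03% of all genes) and with DESeq2 (9.85%). At the same level, APEX1 had a higher mean in Scr16 than in Scr13, by 0.14 ± 0.07 (SE, adjusted p = 0.633 with limma), and POLB also passed that unadjusted level with edgeR (7.47% of all genes) and DESeq2 (8.04%).

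A further 24 genes of the pathway were tested, among them the other glycosylases SMUG1, TDG, MBD4, MPG and NEIL2, the end-processing enzymes, the PARP sensors and the long-patch replication proteins. Without treatment 0 of the 24 were called between the labels. After doxorubicin 3 were lower under the KO label, where 4.17% of all genes were, and none was called higher. These were POLD1, the catalytic subunit of DNA polymerase delta (-0.47 ± 0.09, SE), FEN1, the flap endonuclease of long-patch repair (-0.28 ± 0.08, SE), and PARP1, which senses strand breaks (-0.26 ± 0.08, SE). The median log2 fold change of the 24 was -0.07, beside 0.01 for all genes.

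With doxorubicin, 4 of the 24 fell in the Scr clones, where 5.65% of all genes were called lower, and 8 fell in the clones labelled KO, where 7.43% were. None of the 24 was called higher. The chromatin protein HMGB1 fell by 0.43 on the log2 scale in Scr and by 0.53 under the KO label, PARP1 by 0.33 and 0.51, and PARP2 by 0.35 and 0.43. RPA1, a subunit of the single-strand binding protein, fell by 0.28 in Scr, and POLD1 fell by 0.49 under the KO label. The median of the 24 was -0.13 in Scr and -0.14 under the KO label. No interaction was called in this list. None of the 5 added glycosylases was called in either response.

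Levels of S-phase genes moved together with UNG. Their list of 15 replication genes summed to 3200 ± 131 normalized CPM in untreated Scr, 2443 ± 295 in treated Scr, 2905 ± 72.5 in untreated libraries labelled KO and 2020 ± 109 in treated ones (SD, n = 4 each). With doxorubicin 12 of the 15 fell and 1, CDT1, rose in Scr, where 5.65% of all genes fell, and 11 fell under the KO label, where 7.43% did. The treated Scr libraries with the higher UNG values, Scr13 replicate 2 and Scr16 replicate 2, were also the treated Scr libraries with the higher S-phase sums. Replicates did not always follow this order, since in treated KO11 and in untreated Scr16 the library with the higher S-phase sum had the lower UNG value. Likeness of level over the 8 combinations of clone and treatment was ranked among those of the 15325 genes that had an entry in the name list. Most like UNG were MCM4 (r = 0.990), POLA1 (r = 0.984) and HMGN2 (r = 0.984), as a description over 8 means. Most like NEIL1 were ENSG00000260267 (r = 0.983), which has no symbol here, LRFN4 (r = 0.982) and GSTM2 (r = 0.980). Whether fewer cells in S phase or less RNA in each cell lies behind the lower level cannot be told apart in bulk RNA, and the part of the S-phase level in the UNG values was not tested.

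**Figure D5:**
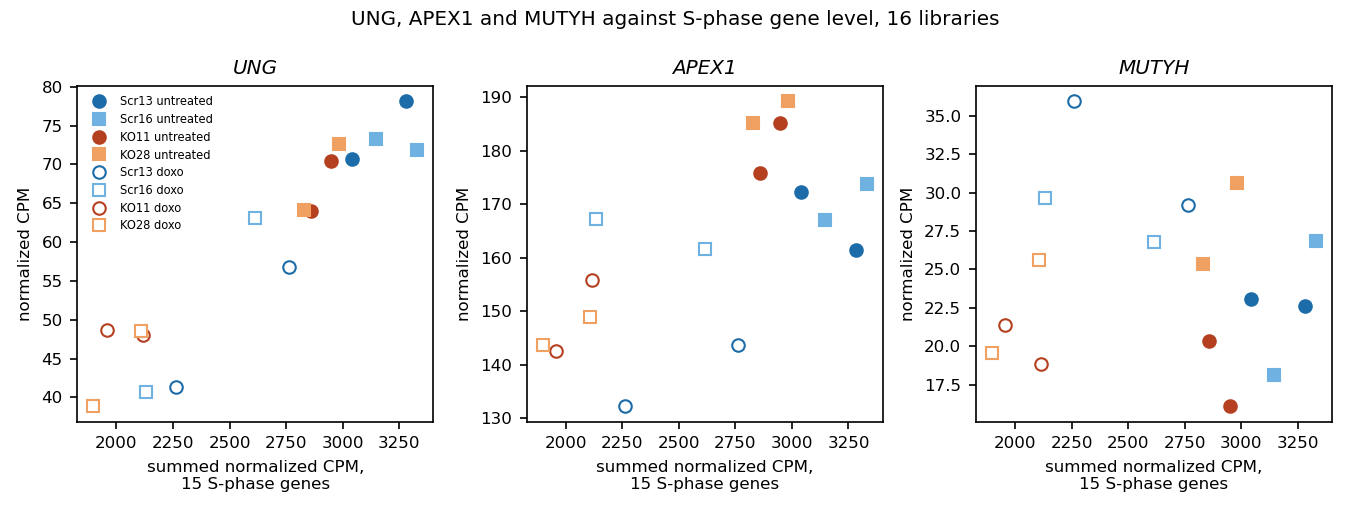
UNG, APEX1 and MUTYH (normalized CPM, y axes not starting at 0) against the summed normalized CPM of 15 S-phase genes in the 16 libraries; filled symbols are untreated and open ones treated with doxorubicin. The 8 treated libraries have lower S-phase sums and lower UNG than the 8 untreated ones, while the MUTYH values of treated and untreated libraries overlap.

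Other lists were compared between the labels with limma. After doxorubicin, where 4.17% of all genes were lower under the KO label and 4.52% higher, 13 of 15 G2/M genes and 4 of 15 S-phase genes were lower under the KO label, and 12 of 15 p53 targets were higher; without treatment, where 2.54% of all genes were lower and 2.30% higher, these counts were 0, 1 and 5 of 14. With doxorubicin 14 of 15 p53 targets rose in Scr (6.95% of all genes) and 15 of 15 rose under the KO label (10.3% of all genes), led by GDF15 with 4.36 and 4.54 on the log2 scale. Of the mesenchymal neuroblastoma markers, 4 of 8 tested were higher and 1, TWIST1, lower under the KO label without treatment, and 6 were higher and 1 lower after doxorubicin. The mesenchymal sums were 823 ± 96.7 and 559 ± 143 normalized CPM without treatment, and 870 ± 117 and 551 ± 94.1 after doxorubicin, for KO-labelled and Scr libraries (SD, n = 4 each). PRRX1, a defining mesenchymal factor, was not listed. The part of this marker difference in the MUTYH difference was not tested.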

How the data were processed

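Libraries were made from poly(A) RNA with a directional kit, and the labels name HISAT2 2.1.0, HTSeq and edgeR on GRCh38. The deposited values are a signal, counts that the authors scaled to normalized CPM; whole reads were recovered for 100% of values (tolerance 0.001 reads). The authors' own fold changes and p-values in these tables were not used. Labels were compared within each treatment table with limma 3.58.1 on log2(normalized CPM + 1), Benjamini-Hochberg adjusted, where 4 or more libraries reached 1 normalized CPM. Responses and interactions used recovered reads, 1 TMM scaling over 16 libraries and clone as a fixed term. Fold changes on this scale understate changes of low genes. Alternatives were edgeR 4.0.16 and DESeq2 1.42.0 on recovered reads, other filters, scalings and blocks, and leaving out libraries or clones. A floor of 3 reads was 0.118 to 0.285 CPM and covers counting error only. The fits were tried on simulated counts that held no differences between the clones of a label. That trial therefore says nothing on how calls depend on clones. All 10 members and TRPM2 were named. Other pathway genes were named with values as the up to 4 called with the largest change in a comparison (up to 2 for other lists), and 3 genes each as most like UNG and NEIL1 by correlation. Overlapping genes, CDT1, TWIST1 and the marker PRRX1 fall outside that rule and were singled out after values were seen. The members and lists were chosen with earlier results of these data known.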

Additional observations from a re-analysis of the deposited data

Results flagged for a closer look

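Among 40 groups of 4 libraries (10 members in 4 groups), 3 had a library set far apart from the other 3, where chance gives about 1 in 20. That rate assumes 4 independent values, while each group held 2 replicates of each of 2 clones, so it is a rough guide only. The gap to the nearest library, as a share of the whole range, was 0.935 for UNG in KO28 with doxorubicin, replicate 1, which lay lowest at 38.8 normalized CPM. Without it, UNG still fell with doxorubicin under the KO label, with a log2 fold change of -0.48. For XRCC1 the share was 0.903 in the same library, which lay highest in its group at 42.2 normalized CPM, and 0.844 in Scr13 with doxorubicin, replicate 2, which lay highest at 53.8 normalized CPM. Without them, the log2 fold change of XRCC1 between the labels after doxorubicin was -0.29 and -0.19.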

How the results depend on the processing

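With 2 clones per label, leaving out a clone, which also removes its libraries, ended each member's call in at least 1 case. Low members, NEIL1 above all with 77 to 222 reads per library, carry the widest intervals. The counts of called genes below are by limma unless another tool is named.

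Genes called between the labels without treatment were 368 with no filter, 330 without clone Scr13 and 327 without clone Scr16, and 508 to 678 without 1 library each. After doxorubicin they were 510 without KO11 and 575 without KO28, and 814 to 1314 without 1 library. For the Scr response they were 567 without Scr13 and 907 without Scr16, and 1351 to 2103 without 1 library. For the response under the KO label they were 926 without KO11 and 1418 without KO28, and 2036 to 2943 without 1 library. Interaction calls were 3 with pseudocount 0.25, 2 with no filter, 10 with edgeR, 58 with DESeq2, 24 with the replicate block, 3 with no clone term, 0 without KO11, 10 without Scr13, 1 without Scr16, 1 without KO28, and 1 to 18 without 1 library. KO28 against KO11 gave 4 with pseudocount 0.25, 2 with no filter and 56 with DESeq2, and Scr16 against Scr13 gave 4 with no filter, 1 with at least 10 reads, 4 with edgeR and 10 with DESeq2.

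Members called after doxorubicin between the labels (1, MUTYH) were 0 with no filter, with clone means and without KO11, Scr13 or KO28, and 0 to 1 without 1 library. Members called in the Scr response (1) were 3 with DESeq2, 0 without Scr13, 2 without KO28, and 1 to 2 without 1 library. DESeq2 called 2287 of 15325 genes in that response. Members called in the response under the KO label (2) were 0 without KO28 and 2 to 3 without 1 library.

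Over all genes, same-numbered deviations had correlations of -0.10 to 0.12 over 28 pairs of groups, 1 of them over 0.1. This does not exclude a replicate pattern in some genes. The S-phase sum was higher in replicate 2 than in replicate 1 of every clone in both treatments, except untreated KO11. With doxorubicin it was 1957 and 2116 normalized CPM in KO11 and 1898 and 2106 in KO28. In the treated Scr clones it was 2262 and 2764 in Scr13 and 2132 and 2614 in Scr16. The replicate block gave 697, 1365, 2106 and 2840 calls in the 4 comparisons of labels and responses and changed no member's call.

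Direction reversed in members whose main value was not called. Between the labels without treatment, the log2 fold change was -0.011 for MUTYH and -0.0027 for LIG3 by library size alone, -0.022 for MUTYH and 0.074 for POLB without Scr16, -0.044 for LIG3 without Scr13, and, without KO28, -0.30 for MUTYH, -0.13 for NEIL1, 0.082 for POLB, -0.058 for XRCC1 and -0.031 for LIG3. After doxorubicin it was 0.042 for OGG1 without KO28, 0.099 for APEX1 and 0.031 for LIG3 without Scr16, -0.010 for POLB and 0.062 for LIG3 without KO11, and -0.14 for POLB without Scr13. In the responses, POLB in Scr was 0.057 without Scr13, and under the KO label, without KO28, OGG1 was 0.095, MUTYH 0.13, POLB -0.013 and XRCC1 0.046, while POLB was -0.0017 by library size alone. In the interaction, UNG was -0.0024 by library size alone, -0.036 with edgeR, -0.035 with DESeq2, -0.075 without KO11 and -0.049 without Scr13, NTHL1 was 0.17 and POLB -0.037 without Scr13, and NEIL3 was 0.070 and LIG3 0.019 without KO11. The cause of these changes was not tested.

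Without 1 library each, values crossed 0 for MUTYH (-0.14 to 0.15), POLB (-0.079 to 0.091) and LIG3 (-0.025 to 0.051) between untreated labels, for UNG (-0.21 to 0.0020), OGG1 (-0.083 to 0.038), APEX1 (-0.089 to 0.023), POLB (-0.054 to 0.13) and LIG3 (-0.074 to 0.020) between treated labels, for POLB (-0.14 to 0.017) in the Scr response, for OGG1 (-0.13 to 0.018), MUTYH (-0.19 to 0.034), POLB (-0.072 to 0.11) and XRCC1 (-0.12 to 0.0019) in the response under the KO label, and for UNG (-0.11 to 0.14), NTHL1 (-0.14 to 0.072), NEIL3 (-0.21 to 0.00030), POLB (-0.021 to 0.17) and LIG3 (-0.067 to 0.018) in the interaction.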
